A study of Anableps anableps with 8 samples.

Results

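Cone nuclei of the Anableps anableps retina whose cone opsin transcripts came almost wholly from 1 of the 2 rh2 opsin genes, ENSABLG00000007592, are described here. Nuclei were barcodes with at least 500 unique molecular identifiers (UMIs, 1 per captured transcript). A nucleus passed the cone gate with at least 3 UMIs over 7 cone phototransduction genes (GNAT2, PDE6C, CNGA3, cnga3a, grk7a, arr3a and gngt2b) and more of these than of 5 rod genes (GNAT1, PDE6A, PDE6B, cnga1a and saga). A gated cone was a member if it held at least 2 UMIs over the 8 cone opsin genes and at least 80% of them came from ENSABLG00000007592. The rule found 377 such nuclei, 191 in retina 1 and 186 in retina 2, among 2462 gated cones and 6430 nuclei. The gene is called copy A here and the other rh2 gene, ENSABLG00000007605, copy B. Both carry the symbol opn1mw1 in the deposited gene table, and the letters are names used here alone.

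The series profiled whole retinas of adult fish of this species with single-nucleus RNA sequencing, in which nuclei are labelled by rounds of combinatorial barcoding. No group was treated or mutant, and the sources used here do not give the strain or exact age of the fish. The series names 5 biological replicates and 8 technical sublibraries of 1 multiplexed pool. The matrix used here holds 2 retina names in 2 sublibraries, s1 and s2, and neither name matches a sample label, so values are given for each retina and none was tested.

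Vertebrate cones each tend to express 1 opsin, and the opsin family sets the light they absorb best. The sws1 opsins absorb ultraviolet or violet light, sws2 blue, rh2 green and lws red, and rh2 genes have been duplicated in many fish lineages. In mouse and zebrafish, the thyroid hormone receptor encoded by THRB is needed for the long-wavelength cone fate, and in zebrafish tbx2b acts in ultraviolet cones. Along the dorsoventral axis of the vertebrate retina, tbx5 genes mark the dorsal and VAX genes the ventral side, where EphB receptors are also high. Anableps swims with its eyes at the surface, and light from the air falls on the ventral retina. The tissue was not divided into dorsal and ventral parts, so no position was measured.

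The copy-A cones were compared with 4 other assigned classes, chosen by the same 80% rule. These were 643 copy-B cones, 122 lws cones, 192 sws1 cones and 204 sws2 cones. A further 924 gated cones, with fewer than 2 opsin UMIs or no class at 80%, were left unassigned. Copy-A cones made up 15.3% of the gated cones (95% Wilson interval 13.9% to 16.8%). Their share was 14.96% in retina 1 and 15.7% in retina 2, so the retinas differed by less than counting error. It was 17.9% in sublibrary s2 (15.9% to 20.1%) and 12.7% in s1 (10.9% to 14.7%), and the members of s2 were also deeper, with medians of 7061 UMIs in s2 and 4322 in s1. Within retina 1 the share was 17.3% in s2 and 12.6% in s1, and within retina 2 it was 18.5% in s2 and 12.7% in s1. Whether depth sets that gap was not tested.

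The matrix held 58447723 UMIs, 27392582 in retina 1 and 31055141 in retina 2. Members had a median of 6014 UMIs (range 1276 to 64041), against 4811 in copy-B cones, 6535 in lws cones and 5771 in all other gated cones. A rod gate UMI was present in 48.5% of members, against 40.3% of copy-B, 45.9% of lws and 47.9% of all other gated cones. High doublet scores were found in 32.9% of members, 32.7% of copy-B cones, 41.0% of lws cones and 48.3% of unassigned cones. No member shared its well combination with a member of the other sublibrary, while 99 combinations were shared between the sublibraries among all nuclei. Sharing between members and other nuclei was not examined. All intervals below cover counting error only.

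The members were chosen on their opsins, so the opsin values describe the choice. Copy A held 1976 UMIs in members, which is 682 CPM (UMIs of the gene per 1e6 UMIs), with 715 in retina 1 and 651 in retina 2. It stood at 10.1 CPM in copy-B cones, and no UMI of it was found in lws cones. All other opsin genes together gave 27 UMIs in members, of which copy B gave 4. Copy B in turn stood at 1.38 CPM in members and at 1283 CPM in copy-B cones. The sources used here do not say how the authors' counting treated reads shared by the 2 rh2 copies, so their separation in these counts is uncertain to that extent. All opsin UMIs came from copy A in 357 of the 377 members. Members held a median of 5 opsin UMIs (range 2 to 41), and 71 held exactly 2.

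Most gated cones stood at either end of the range of copy A shares. Of the 1927 gated cones with at least 2 opsin UMIs, 1272 held no UMI of copy A. Just inside the threshold, 17 members had a share between 80% and 90%, and just outside it 25 gated cones had 70% to 80%, the highest at 77.8%. Rods should lack cone opsins and gave a measure of the background. Among 2832 rod-gated nuclei, with at least 3 rod gate UMIs and more of these than of cone gate UMIs, 6.32% had a copy A UMI at a level of 34.3 CPM and a median depth of 2381 UMIs. Barcodes with fewer than 100 UMIs held copy A at 68.9 CPM.

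**Figure D1:**
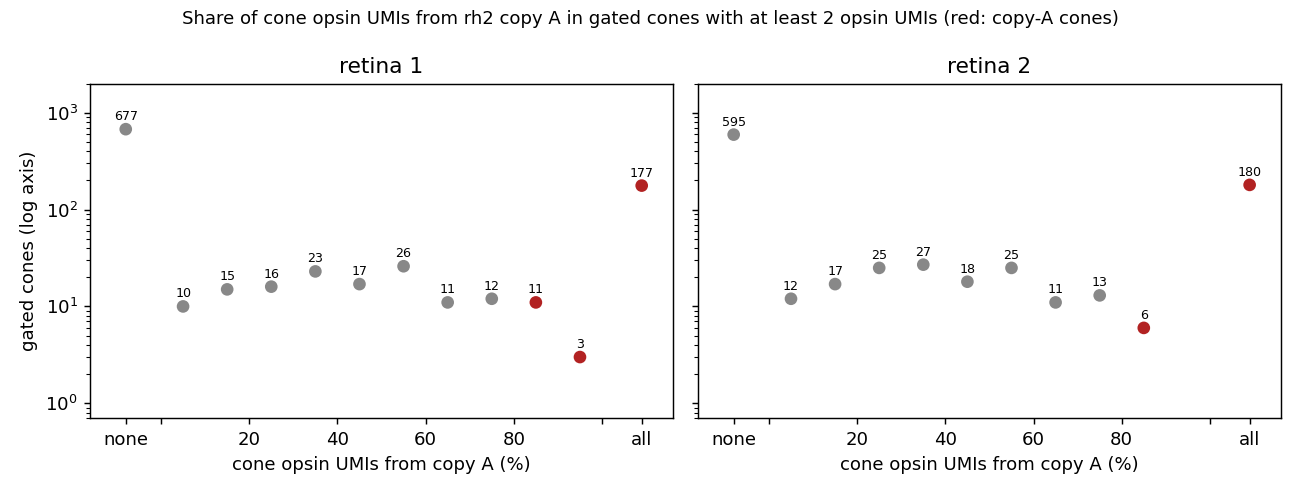
Number of gated cones with at least 2 opsin UMIs (log axis) by the percentage of those UMIs that came from copy A, in each retina, with copy-A cones in red. The cones gather at the ends, with 177 all copy A and 677 without it in retina 1, and 180 and 595 in retina 2.

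Of the 3 marker genes named for these cones, opn1mw1 was used by the rule. SLC9A9, an endosomal sodium/proton exchanger, had 70.4 CPM in retina 1 and 92.4 in retina 2 in members, against 28.9 in retina 1 and 29.0 in retina 2 in all other gated cones. Its log2 ratio was 1.49 (95% interval 1.27 to 1.71). TBX2, a T-box transcription factor, had 36.3 and 41.7 CPM in members, against 37.0 and 32.3 CPM in all other gated cones, in retina 1 and retina 2. The retinas differed in direction for TBX2, and its log2 ratio of 0.17 (−0.13 to 0.46) does not mark members off from the other gated cones as a whole. It was higher in members than in copy-B cones and lower than in lws cones, as given below. The 7 cone gate genes and 5 rod gate genes were used by the gate and are left out of every count.

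The 2 rh2 classes differed in a group of genes that includes regulators of cone identity. THRB, SAMD7, rxrgb, SOX6 and bcl11aa, all encoding nuclear proteins, were more than 2-fold higher in copy-A cones in each retina. The phospholipid enzyme gene LPCAT1 and the heparan sulfate 6-O-sulfotransferase gene hs6st3a were also higher. NTF3, FIBCD1, TMEM132E and TMEM91 were lower in copy-A cones, by wider margins. A gene was called when its ratio was 2-fold or more in the same direction in each retina and its level reached 20 CPM in at least 1 class. Of 6804 genes at that level, 50 (0.735%) were higher in copy-A cones and 179 (2.63%) were lower, and the median log2 ratio over all of them was −0.02.

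THRB, the thyroid hormone receptor gene, had 469 CPM in retina 1 and 486 in retina 2 in copy-A cones, against 115 and 120 CPM in copy-B cones. Within each class the 2 retinas stood close together. The summed THRB values of the 2 classes did not overlap, which is likely for a gene called at 2-fold or more in each retina. Its log2 ratio was 2.03 (1.88 to 2.17), and a UMI of it was found in 337 of 377 copy-A cones and 127 of 643 copy-B cones. SAMD7, a photoreceptor repressor in mouse, had 883 and 863 CPM in copy-A cones, against 364 and 367 CPM in copy-B cones, a log2 ratio of 1.26. The retinoid X receptor gene rxrgb, whose product pairs with the thyroid hormone receptor, stood at 294 and 350 CPM in copy-A cones, against 134 and 114 CPM in copy-B cones (1.37). TBX2 was low in both classes, with 36.3 and 41.7 CPM in copy-A cones and 12.7 and 11.5 CPM in copy-B cones (1.68).

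LPCAT1 (ENSABLG00000015600), which encodes a lysophosphatidylcholine acyltransferase known in mouse photoreceptors, gave the largest ratio among the genes named. It had 120 CPM in retina 1 and 83.5 in retina 2 in copy-A cones, against 8.10 and 6.61 CPM in copy-B cones. Its log2 ratio was 3.78 (3.27 to 4.32), and 155 of 377 copy-A cones and 21 of 643 copy-B cones held a UMI of it. A second gene with the symbol LPCAT1, ENSABLG00000021193, is given apart below. LPCAT1 without an identifier means ENSABLG00000015600 throughout. The gene sh3bp5b, for an SH3-binding protein, showed 143 and 112 CPM in copy-A cones, against 13.1 and 8.38 CPM in copy-B cones (3.55). SLC9A9 stood at 70.4 and 92.4 CPM in copy-A cones, against 12.4 and 7.94 CPM in copy-B cones (2.99). These 3 genes were at low levels in copy-B cones, where 21 to 30 nuclei held a UMI of each.

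The sulfation enzyme gene hs6st3a was both higher and widely detected. It reached 331 and 313 CPM in copy-A cones, against 50.6 and 43.2 CPM in copy-B cones, a log2 ratio of 2.77 (2.56 to 2.99), with a UMI in 267 of 377 and 77 of 643 nuclei. Col7a1, a collagen VII gene, had 344 and 279 CPM in copy-A cones, against 54.0 and 81.1 CPM in copy-B cones (2.22). The pseudokinase gene PEAK1 had 356 and 267 CPM in copy-A cones, against 73.3 and 61.7 CPM in copy-B cones (2.20). In each of these genes the lower retina of copy-A cones lay above the higher retina of copy-B cones. They were named for large ratios of 2-fold or more in each retina, which made that order likely. The transcription factor genes bcl11aa and SOX6 (ENSABLG00000021078) had log2 ratios of 2.03 and 1.90, the anoctamin gene ano5a 2.35, and si:dkey-72l14.3, for which no role is given here, 2.06.

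One of the 12 genes with the largest ratios rested on few nuclei. The neuregulin receptor gene erbb4b (ENSABLG00000011439) had 65.6 and 80.7 CPM in copy-A cones, against 5.40 and 19.0 CPM in copy-B cones, but only 20 of 377 copy-A cones held a UMI and 1 of them held 77 of the 212 UMIs. Without the nuclei of high doublet score, copy-A cones held 2 UMIs of it and copy-B cones 1. Without those nuclei THRB stood at 3.89 (3.54 to 4.26), hs6st3a at 4.01 (3.59 to 4.46) and LPCAT1 at 5.04 (4.03 to 6.28). That set held 253 copy-A cones and 433 copy-B cones.

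The largest ratios on the lower side exceeded those on the higher side. NTF3, a neurotrophin gene, had 41.8 CPM in retina 1 and 30.1 in retina 2 in copy-A cones, against 664 and 629 CPM in copy-B cones. A UMI of it was found in 38 of 377 copy-A cones and 589 of 643 copy-B cones, and its log2 ratio was −4.17 (−4.47 to −3.89). FIBCD1, whose product binds acetylated structures such as chitin, had 37.0 and 112 CPM in copy-A cones, against 1336 and 1357 CPM in copy-B cones. It was present in 28 of 377 copy-A cones and 614 of 643 copy-B cones, at a log2 ratio of −4.17 (−4.37 to −3.97). The 2 retinas differed 3-fold in copy-A cones but not in copy-B cones.

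Other named genes that were lower also stood at low levels in copy-A cones. TMEM91 stood at 11.2 and 9.58 CPM in copy-A cones, against 271 and 240 CPM in copy-B cones (−4.63). TMEM132E stood at 34.9 and 39.0 CPM in copy-A cones, against 553 and 616 CPM in copy-B cones (−3.98). The protocadherin gene PCDH17 (−2.25), the semaphorin gene sema6ba (−2.20) and the tweety family gene ttyh2l (−3.26) were lower as well. Also called were the cytochrome c gene cycsb (−3.01) and PPARGC1A, a coactivator of mitochondrial genes (−2.15). The recoverin gene rcvrn2, for a calcium sensor of phototransduction, had 41.1 and 23.9 CPM in copy-A cones, against 177 and 188 CPM in copy-B cones (−2.49).

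Besides FIBCD1, 2 of the 12 lower genes had retinas that stood apart among copy-A cones. DZANK1 had 17.4 and 98.5 CPM in copy-A cones, against 271 and 243 CPM in copy-B cones (−2.14). The metabotropic glutamate receptor gene grm8a had 5.58 and 24.6 CPM in copy-A cones, against 74.1 and 63.9 CPM in copy-B cones (−2.19), and it was found in 10 copy-A cones. Without nuclei of high doublet score, grm8a held 2 UMIs in copy-A cones and 9 in copy-B cones, and its interval (−4.92 to 0.61) included no difference. In the same set FIBCD1 stood at −6.36 (−6.91 to −5.86) and NTF3 at −5.04 (−5.54 to −4.57).

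**Figure D2:**
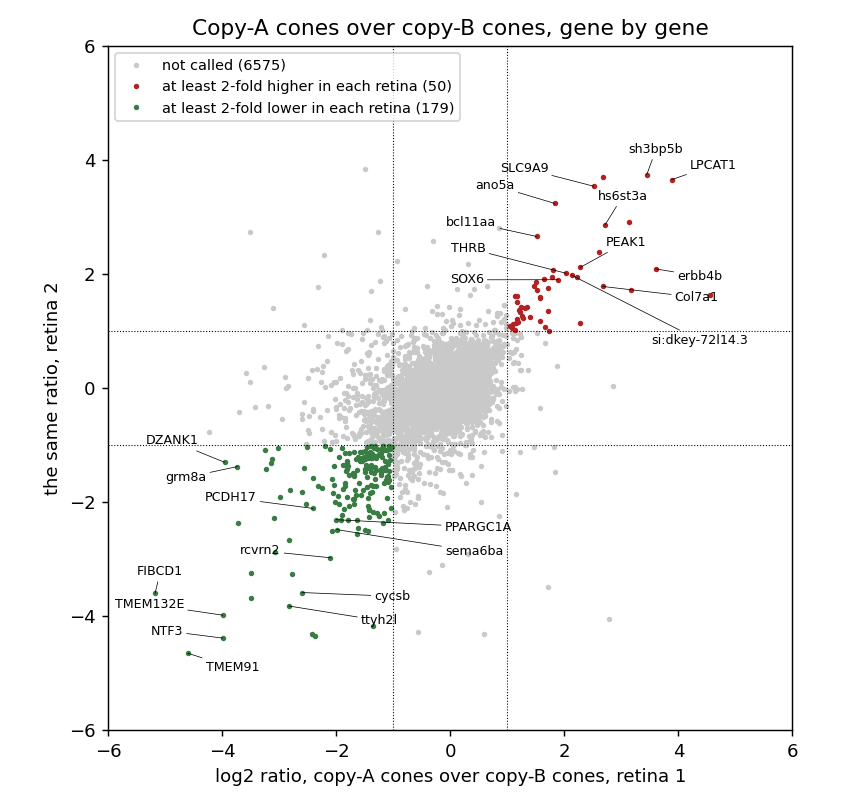
Log2 ratio of CPM in copy-A cones over copy-B cones for each gene with at least 20 CPM in either class, retina 1 on the horizontal and retina 2 on the vertical axis. The 50 genes called higher and 179 called lower are coloured, the remaining 6575 are grey, and the named genes stand near the diagonal apart from those such as FIBCD1 and DZANK1. The named genes were picked for ratios of 2-fold or more in the same direction in each retina.

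The gene lists showed where the rh2 classes differed and where few genes were called. Over all genes tested 0.735% were higher in copy-A cones and 2.63% lower. Of 29 tested genes of the photoreceptor fate list, 4 were higher in copy-A cones (THRB, TBX2, rxrgb and SAMD7) and 3 lower, and the list median was −0.02. The lower ones were the nuclear receptor genes NR2F2 (−2.26) and esrrgb (−1.26) and the T-box gene tbx2b (−1.20). Without nuclei of high doublet score tbx2b held 6 UMIs in copy-A cones and 14 in copy-B cones, at −0.72 (−2.39 to 0.75), and was no longer called. CRX (0.09) and otx5 (0.00), homeobox genes used by all photoreceptors, were at like levels in both classes, with intervals of −0.11 to 0.30 and −0.18 to 0.18. RORB, a nuclear receptor of photoreceptor development, was at −0.87 (−1.03 to −0.71) and was not called. Without nuclei of high doublet score it stood at −1.30 (−1.57 to −1.03) and was called lower.

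Of 16 tested genes of the dorsoventral list, which in part came from earlier results on these data, none was higher and 3 were lower. These were TMEM91, FIBCD1 and DZANK1, and the list median was −0.79. The shares over all genes tested were 0.735% higher and 2.63% lower. VAX2, a ventral homeobox gene, had 199 and 215 CPM in copy-A cones, against 161 and 190 CPM in copy-B cones (0.25, 0.09 to 0.40). EPHB3, an ephrin receptor gene, had 2767 and 2687 CPM in copy-A cones, against 1895 and 1923 CPM in copy-B cones (0.52, 0.47 to 0.56). Both were higher in each retina by less than 2-fold, and the COUP factor gene nr2f5 likewise (0.36, 0.26 to 0.47). Without nuclei of high doublet score, the ephrin receptor gene ephb2b was called higher (1.59, 1.24 to 1.94). In that set SAMD11 (−4.12), EFNB3 (−2.54), SMOC1 (−1.60) and the efnb2a copy ENSABLG00000016818 (−1.29) were called lower, and none of these 5 was called with all nuclei.

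Few genes of the remaining lists were called between the rh2 classes, as for all genes at this level, of which 0.735% were higher and 2.63% lower. Among 24 phototransduction genes outside the gate, the guanylate cyclase activator gene guca1g (ENSABLG00000003643) was higher (1.37), and rcvrn2 and the cone channel subunit gene cngb3.2 (−1.94) were lower. None of the 30 outer segment genes or 24 circadian genes was called. Of 41 synapse genes, 3 were lower, namely the vesicle priming gene unc13a (−1.35) and the adhesion genes cadm1b (−1.32) and nrxn2b (−1.31). The ratio of cadm1b rested on few nuclei. Only 35 copy-A cones held a UMI of it, with 54.6% of its 348 UMIs in 5 nuclei, and it was also unevenly spread among copy-B cones. Of 33 genes for channels and transporters of the inner segment, SLC9A9 and the potassium channel gene KCNMA1 (1.08) were higher and kcnh5b (−2.10) was lower. The retinol-binding protein gene rbp4l (ENSABLG00000020133, 1.32) was higher and rlbp1a (−2.05) lower among 17 visual cycle genes. THRB and rxrgb were the 2 genes called among 19 of the thyroid and retinoid list.

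Transcripts of genes listed for other retinal cells were present in both rh2 classes. The 17 rod list genes summed to 1133 and 1089 CPM in copy-A cones, against 1185 and 1100 CPM in copy-B cones, with 3 and 2 of the genes at 0. The 17 Müller glia genes summed to 469 and 525 CPM in copy-A cones, against 746 and 592 CPM in copy-B cones, with 1 and 2 genes at 0. Of 7 Müller glia genes with at least 20 CPM, none was higher and 3 were lower in copy-A cones, with a list median of −1.29. These were rlbp1a (−2.05), slc1a2b (−1.46) and kcnj10a (−1.25), beside 2.63% of all genes lower. The part of the glial sum in any result was not tested. The 13 amacrine genes summed to 1458 and 1359 CPM in copy-A cones, against 1906 and 1987 CPM in copy-B cones, with 3 and 2 genes at 0. Only 2 of these 13 reached 20 CPM in either rh2 class, so the sum rests on very few genes. The 13 bipolar genes summed to 805 and 1022 CPM in copy-A cones, against 852 and 1007 CPM in copy-B cones, with none at 0. Of these, 4 reached 20 CPM, and trpm1b gave 371 CPM over both retinas in copy-A cones, with a UMI in 65 nuclei. Whether cones express such genes themselves was not tested.

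The lws cones were the other class high in THRB. EPHB3 and nr2f5 were higher in copy-A cones than in lws cones, and esrrgb, TBX2, NR2F2 and the cone channel subunit gene cngb3.2 were lower. THRB and SAMD7 stood within 2-fold. This comparison uses the same copy-A cones as the one with copy-B cones, so the 2 are not independent. Of 6881 genes with at least 20 CPM in either class, 89 (1.29%) were higher in copy-A cones and 186 (2.70%) lower, with a median log2 ratio of −0.01. The lws class held 122 nuclei, so its counts were the smaller.

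The COUP factor gene nr2f5 had 446 CPM in retina 1 and 456 in retina 2 in copy-A cones, against 35.7 and 75.7 CPM in lws cones. Its log2 ratio was 3.096 (2.68 to 3.54), with a UMI in 293 of 377 copy-A cones and 11 of 122 lws cones. EPHB3 had 2767 and 2687 CPM in copy-A cones, against 265 and 613 CPM in lws cones (2.72, 2.57 to 2.87). For both genes the lws values differed about 2-fold between retinas and stayed far below those of copy-A cones. VAX2 had 199 and 215 CPM in copy-A cones, against 97.7 and 108 CPM in lws cones, at 1.02 (0.70 to 1.35). It was not called, since its ratio was 1.02 in retina 1 and 0.99 in retina 2.

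These 3 genes stood much farther apart without nuclei of high doublet score, which left 253 copy-A and 72 lws cones. VAX2 then held 264 UMIs in copy-A cones and 2 in lws cones, with a counting interval of 3.45 to 8.37 on the log2 scale. The counts of nr2f5 were 784 UMIs in copy-A cones and 1 in lws cones (5.40 to 13.19). EPHB3 stood at 3352 and 3265 CPM in copy-A cones, against 128 and 21.9 CPM in lws cones, a log2 ratio of 5.35 (4.86 to 5.88). VAX2 was called in that set.

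LPCAT1 had 120 and 83.5 CPM in copy-A cones, against 7.51 and 2.52 CPM in lws cones, and 155 of 377 copy-A cones and 3 of 122 lws cones held a UMI. Its log2 ratio was 4.24 (3.00 to 5.87), so it was low in both the copy-B and the lws class. The remaining genes of largest ratio rested on few nuclei. These were erbb4b (4.09, 20 copy-A cones), the GDNF co-receptor gene GFRA1 (4.04, 16 copy-A cones) and MDGA1 (3.21, 18 copy-A cones, with 155 of its 260 UMIs in 1). Without nuclei of high doublet score GFRA1 held 5 UMIs in copy-A cones and 1 in lws cones, too few to give a direction. MDGA1 held 3 and 1 UMIs there, which allows no ratio.

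Genes lower in copy-A cones than in lws cones included esrrgb, cngb3.2 and rcvrn2. The estrogen-related receptor gene esrrgb had 70.4 and 75.9 CPM in copy-A cones, against 541 and 679 CPM in lws cones (−3.03). The cone channel subunit gene cngb3.2 had 170 and 114 CPM in copy-A cones, against 1197 and 984 CPM in lws cones (−2.96). The recoverin gene rcvrn2 stood at 41.1 and 23.9 CPM in copy-A cones, against 203 and 199 CPM in lws cones (−2.63). With guca1g (ENSABLG00000003644, −2.66), cngb3.2 and rcvrn2 made 3 lower and 0 higher of 24 phototransduction genes, beside 2.70% of all genes lower. ZCCHC4, an RNA methyltransferase gene, was the fifth gene of the lower side (−2.61).

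TBX2 was higher in copy-A than in copy-B cones but lower than in lws cones. It stood at 36.3 and 41.7 CPM in copy-A cones, against 152 and 179 CPM in lws cones (−2.07, −2.43 to −1.71). Of 29 photoreceptor fate genes, nr2f5 and SIX3 (1.13) were higher and esrrgb, NR2F2 (−2.64), TBX2 and MEF2C (−1.45) were lower, with a list median of 0.15. THRB was at −0.30 (−0.44 to −0.15), SAMD7 at 0.00 (−0.12 to 0.11) and rxrgb at 0.36 (0.15 to 0.57), each within 2-fold. Of 17 dorsoventral genes, EPHB3 was higher, and GPC4 (−2.10), both efnb2a copies (−1.59 and −1.40), ENOX1 (−1.26) and TMEM91 (−1.26) were lower. The median of that list, which in part came from earlier results on these data, was −0.69. Beside both lists, 1.29% of all genes tested were higher and 2.70% lower. When nuclei of high doublet score were left out, SIX3 stood at 0.85 (−0.24 to 2.15) and was no longer called, nor was the efnb2a copy ENSABLG00000001777, whose retinas then stood at −4.06 and 0.08. TMEM91 then held too few UMIs for a ratio.

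FIBCD1 was low in both classes, with 37.0 and 112 CPM in copy-A cones, against 26.3 and 22.7 CPM in lws cones, and it was not called. SMOC1 depended on the retina, with 20.9 and 60.2 CPM in copy-A cones, against 9.39 and 552 CPM in lws cones. Among 38 synapse genes, the active zone gene RIMS2 (1.62) and the calcium-binding gene CABP4 (1.18) were higher, and CADM4 (−1.74) and nrxn2b (−1.33) were lower. RIMS2 rested on few nuclei, since 47 of 377 copy-A cones held a UMI of it and 1 held 119 of the 365 UMIs. Among 34 inner segment channels and transporters, slc12a5b (1.98) and the calcium channel subunit gene cacna2d4a (1.32) were higher, and the potassium channel genes KCNB2 (ENSABLG00000016325, −2.35) and kcnh5b (−1.59) were lower. The disc rim gene prph2b (−1.56) and pcdh15b (−1.11) were lower among 30 outer segment genes. Of 19 thyroid and retinoid genes, RARB (ENSABLG00000003924, 1.93) was higher and rxrbb (−1.34) lower. None of the 24 circadian genes was called. Over all genes tested against lws cones 1.29% were higher and 2.70% lower, so few calls or none are likely in lists of this size.

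Rod and glial transcripts differed between the retinas in lws cones. The rod list summed to 1133 and 1089 CPM in copy-A cones, against 1172 and 600 CPM in lws cones, with 3 of 17 genes at 0 in each class. The Müller glia list summed to 469 and 525 CPM in copy-A cones, against 532 and 1143 CPM in lws cones, with 1 and 3 of 17 genes at 0. Its member SMOC1 was the gene with 552 CPM in lws cones of retina 2. Of 7 Müller glia genes with at least 20 CPM, none was higher and 2 were lower, rlbp1a (−2.26) and glula (−1.51). Over all genes 2.70% were lower. The part of these transcripts in the results was not tested.

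Set against all 2085 other gated cones, the copy-A cones had fewer genes called higher. Of 6777 genes, 20 (0.295%) were higher in copy-A cones and 188 (2.77%) lower, with a median log2 ratio of −0.01. The other gated cones include the 924 unassigned cones, and 42 genes were higher and 215 lower when only cones assigned to an opsin were used. THRB had 469 and 486 CPM in copy-A cones, against 254 and 230 CPM in the others, and at 0.98 (0.89 to 1.07) it was just short of 2-fold. SAMD7, at 1.00 (0.94 to 1.07), was not called either. With nuclei of high doublet score left out, THRB stood at 1.60 (1.47 to 1.73) and SAMD7 at 1.29, and both were called higher. Against only the cones assigned to an opsin, their log2 ratios were 1.62 for THRB and 1.37 for SAMD7.

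Among the named genes on the higher side, LPCAT1 had the largest ratio after erbb4b, which rested on few nuclei. LPCAT1 had 120 and 83.5 CPM in copy-A cones, against 23.7 and 22.4 CPM in the others (2.14). The gene sh3bp5b had a log2 ratio of 2.08, ano5a 1.58, Col7a1 1.52, si:dkey-72l14.3 1.32 and hs6st3a 1.12. Added to these were lrtm2a, for a leucine-rich repeat membrane protein (1.24), smc1al (1.11), the nucleotidase gene ENTPD7 (1.09) and ELMO1, a regulator of Rac signalling (1.06). The ratio of erbb4b was 2.35, and −0.41 without nuclei of high doublet score.

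Genes lower in copy-A cones than in the other gated cones included skor1a, tbx2b and fscn2a. The co-repressor gene skor1a had 8.37 and 4.10 CPM in copy-A cones, against 115 and 131 CPM in the others (−4.31), with a UMI in 10 of 377 and 704 of 2085 nuclei. The T-box gene tbx2b had 16.04 and 15.05 CPM in copy-A cones, against 152 and 150 CPM in the others (−3.28). The photoreceptor fascin gene fscn2a had 46.7 and 14.4 CPM in copy-A cones, against 300 and 377 CPM in the others (−3.48). NTF3 (−3.64), TMEM91 (−3.99) and TMEM132E (−3.26), already lower than in copy-B cones, were lower here too, as was ttyh2l (−3.23). The others of the 12 were the NMDA receptor gene grin3bb (−3.91), es1 (−3.42), KANK4 (−3.23), the protocadherin gene pcdh11 (−2.89) and otub1b (−2.86). Of 29 fate genes none was higher and 3 were lower, and of 16 dorsoventral genes none was higher and 6 lower, with medians of 0.02 and −0.93. The shares over all genes tested were 0.295% higher and 2.77% lower. As above, the dorsoventral list came in part from earlier results on these data, so its calls are not independent of them.

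Across the 5 assigned classes, the copy-A cones held an order of levels that differed by gene group. THRB stood at 478 CPM in copy-A cones, 117 in copy-B, 587 in lws, 96.9 in sws1 and 75.7 in sws2 cones. The gene hs6st3a was at 322, 47.1, 447, 33.8 and 39.8 CPM in the same order of classes. In this group, with SAMD7, PEAK1, SOX6, bcl11aa and SLC9A9, copy-A and lws cones were the 2 highest classes. TBX2 had the same order but a wider gap, at 39.0 CPM in copy-A, 12.1 in copy-B, 164 in lws, 6.50 in sws1 and 1.92 in sws2 cones.

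EPHB3 and nr2f5 had another order, with copy-A cones highest and lws cones lowest. EPHB3 stood at 2727 CPM in copy-A cones, 1908 in copy-B, 413 in lws, 1036 in sws1 and 1207 in sws2 cones. NTF3 was low in copy-A and lws cones, at 35.9 and 29.1 CPM, and near 650 CPM elsewhere, with 648 in copy-B, 633 in sws1 and 673 in sws2 cones. FIBCD1 was high in copy-B cones alone, at 1346 CPM, against 74.9 in copy-A, 24.8 in lws, 39.7 in sws1 and 37.2 in sws2 cones. The gene tbx2b stood at 15.5 CPM in copy-A cones, 35.6 in copy-B, 28.0 in lws, 495 in sws1 and 382 in sws2 cones.

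Of 7455 genes with at least 20 CPM in 1 of the 5 classes, copy-A cones were the highest class in each retina for 567 (7.61%) and the lowest for 419 (5.62%). The counts for highest were 370 in copy-B, 727 in lws, 735 in sws1 and 389 in sws2 cones. For 15 of them the copy-A level over both retinas was at least 2-fold above all 4 others. Among those named here LPCAT1 led, at 102 CPM in copy-A cones and a log2 ratio of 2.89 over sws1 cones, the next class. The gene erbb4b (2.64), with a UMI in 20 copy-A cones, is set aside. A UMI was found in 155 of 377 copy-A cones for LPCAT1, 135 for sh3bp5b, 243 for Col7a1, 79 for ano5a, 89 for TACR3 and 372 for ELMO1. LPCAT1 was followed by sh3bp5b, Col7a1 (1.23) and ano5a (1.22), each with lws cones next. After them came the neurokinin receptor gene TACR3 (1.13) and ELMO1 (1.01). In 1 retina the lead of each of these followers was under 2-fold. The log2 lead was 0.89 for sh3bp5b, 0.93 for Col7a1 and 0.96 for ano5a in retina 2. In retina 1 it was 0.85 for TACR3 and 0.98 for ELMO1. The genes of lowest rank in copy-A cones were led by rcvrn2, at 32.5 CPM and a log2 gap of 2.49 to the next class, then GCNT7 (2.18), PPARGC1A (2.15) and cngb3.2 (1.79).

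**Figure D3:**
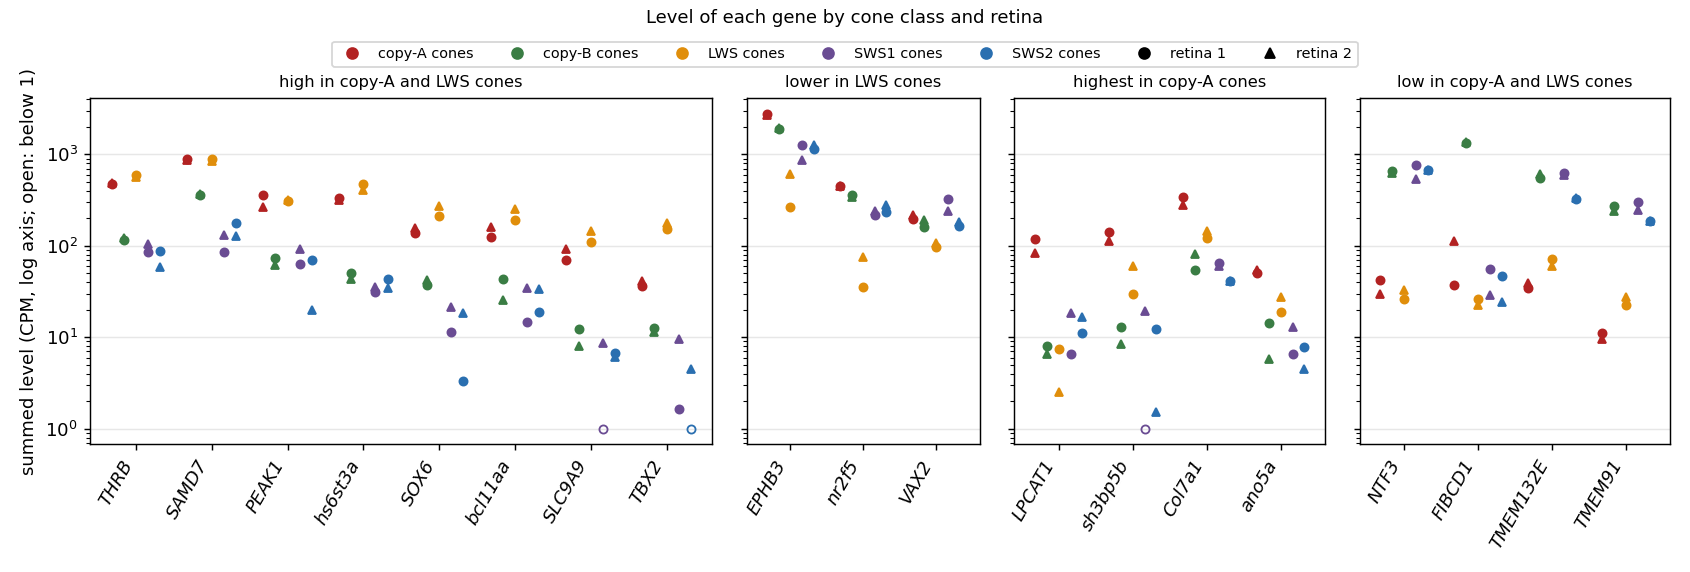
CPM (log axis) of 19 genes in the 5 assigned cone classes, 1 point per retina, open where the level was below 1 CPM and drawn at 1. Copy-A cones stand with lws cones for THRB (478 and 587 CPM), above them for EPHB3 (2727 and 413 CPM), above all classes for LPCAT1 (102 CPM), and low with them for NTF3 (35.9 and 29.1 CPM).

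Shares of nuclei with a UMI were compared after thinning each nucleus to 2000 UMIs, which kept 373 copy-A, 624 copy-B, 120 lws, 191 sws1, 201 sws2 and 1617 rod-gated nuclei. THRB was found in 59.0% of copy-A cones (95% Wilson interval 53.9% to 63.9%), against 8.7% of copy-B cones, 65.8% of lws cones and 21.7% of rod-gated nuclei. Without thinning the shares were 89.4% of copy-A, 19.8% of copy-B, 91.0% of lws cones and 25.9% of rod-gated nuclei. The share in copy-A cones was above that of the rod-gated nuclei and the share in copy-B cones was below it.

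LPCAT1 was found in 21.2% of copy-A cones (17.3% to 25.6%), against 0.6% of copy-B, 1.7% of lws, 1.6% of sws1 and 2.5% of sws2 cones and 1.4% of rod-gated nuclei. The unthinned shares were 41.1% of copy-A, 3.3% of copy-B and 2.5% of lws cones. The second LPCAT1 gene, ENSABLG00000021193, had like thinned shares in all classes. It was found in 7.2% of copy-A, 6.1% of copy-B, 6.7% of lws, 7.3% of sws1 and 5.5% of sws2 cones. In rod-gated nuclei its share was 8.3%. FIBCD1 was found in 3.2% of copy-A cones, 87.0% of copy-B cones and 3.3% of lws cones, with 17.6% of rod-gated nuclei. NTF3 was found in 4.8% of copy-A cones, 71.3% of copy-B cones and 5.0% of lws cones, with 14.6% of rod-gated nuclei. For both genes the shares in copy-A and lws cones lay below that in rod-gated nuclei. FIBCD1 was found in 3.7% of sws1 and 3.5% of sws2 cones, also below the rod-gated share. The rod-gated share is therefore not a measured background for these genes. Thinning also left out 1215 of the 2832 rod-gated nuclei.

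EPHB3 was found in 94.9% of copy-A cones (92.2% to 96.7%), 72.4% of copy-B cones and 18.3% of lws cones, with 50.2% of rod-gated nuclei. VAX2 was found in 28.2% of copy-A cones, 24.2% of copy-B cones and 10.8% of lws cones, and in 36.9% of rod-gated nuclei. The copy-A share of EPHB3 was above that of rod-gated nuclei and that of VAX2 was below it. Rods may express VAX2 themselves, so the rod-gated share is a limit and not a measured background for that gene.

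**Figure D4:**
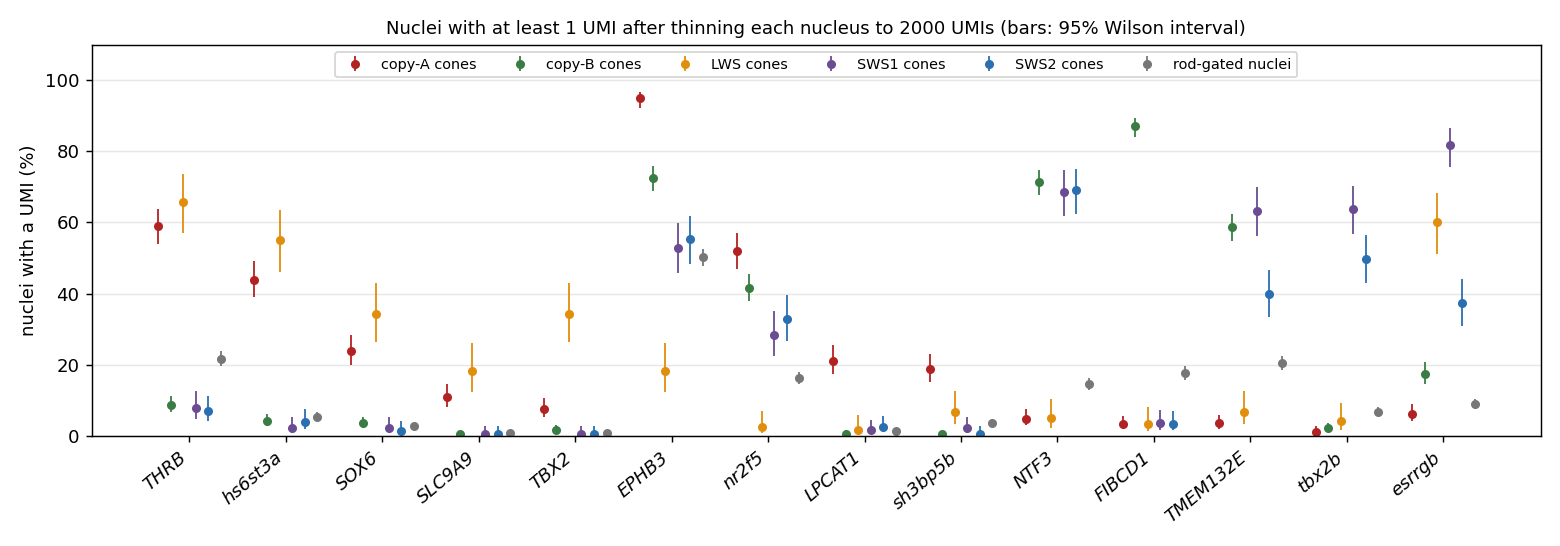
Percentage of nuclei with at least 1 UMI of 14 genes after thinning to 2000 UMIs, in the 5 cone classes and in rod-gated nuclei, with 95% Wilson intervals that cover counting error only. Copy-A cones stand at 59.0% for THRB and 21.2% for LPCAT1 and at 3.2% for FIBCD1, against 8.7%, 0.6% and 87.0% of copy-B cones.

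Marks of dorsoventral side among the copy-A cones were almost all of the VAX kind. The VAX mark was also the more frequent in copy-B, sws1 and sws2 cones and in rod-gated nuclei. A VAX UMI with no tbx5 UMI was found in 189 of 377 members (50.1%, 45.1% to 55.2%), with 47.1% in retina 1 and 53.2% in retina 2. A tbx5 UMI with no VAX UMI was found in 2 members, 1 in each retina, both kinds in 13 and neither in 173. Among copy-B cones 36.1% (32.5% to 39.9%) had the VAX mark alone and 22 of 643 the tbx5 mark alone, and among lws cones 18 of 122 had each. These shares were not thinned, and copy-B cones were shallower, with a median of 4811 UMIs against 6014 in copy-A cones. After thinning to 2000 UMIs, VAX2 was found in 28.2% of copy-A cones (23.8% to 32.9%) and 24.2% of copy-B cones (21.0% to 27.7%), and these intervals overlap. In rod-gated nuclei, which were shallower, 35.5% had the VAX mark alone, and 81 of 2832 had the tbx5 mark alone. Among 204 sws2 cones 71 had the VAX mark alone and 8 the tbx5 mark alone. Among 192 sws1 cones the numbers were 71 and 25. VAX genes stood at 199 and 215 CPM in members and tbx5 genes at 25.8 CPM in retina 1 and 3.42 in retina 2. With 2 tbx5-marked members, no comparison of the marks within copy-A cones was made.

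Variation among the copy-A cones beyond counting was measured by the index of dispersion around the mean scaled by depth, which is 1 for pure counting noise. Over 3354 genes with at least 50 CPM its median was 1.59 in copy-A cones, against 1.56 in copy-B cones for the same genes. An index of 10 or more was found for 57 genes with all 377 members and for 6 genes without the 124 members of high doublet score. The highest values with a symbol were those of TNR, an extracellular matrix gene (70.3), the carbonic anhydrase-related gene ca10a (50.5) and the cation channel gene TRPM3 (37.1).

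Single nuclei held much of these transcripts. One member held 353 of the 996 UMIs of TNR, and 1 held 359 of the 520 of ca10a. Without members of high doublet score the index was 1.76 for TNR, 1.60 for ca10a and 1.11 for TRPM3. The melanopsin gene OPN4 had an index of 30.7, with a UMI in 29 members, and of 1.35 without the members of high doublet score. Next to it stood si:ch211-263k4.2 (31.0 and 1.01), matn3b (28.8 and 0.73), BNC2 (27.9 and 1.42), TENM1 (27.4 and 3.05) and the neurotrophin receptor gene ntrk3b (25.8 and 2.69), each given with all members and without those of high doublet score. The gene of highest index, ENSABLG00000001830, has no symbol in the files, was found in 376 members and had an index of 70.3 with all members and 23.4 without those of high doublet score.

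A few genes stayed uneven among the remaining 253 members. FIBCD1 had an index of 14.32, the potassium channel gene KCNB2 (ENSABLG00000016325) 13.3 and the protocadherin gene pcdh7b 10.3. For FIBCD1, 349 of 377 members held no UMI and 13 held 5 or more, with 193 of the 217 UMIs and up to 34 in 1 nucleus. Of those 13, 3 were in retina 1 and 10 in retina 2, which is where the 2 retinas stood apart above, and 11 had high doublet scores at a median depth of 18532 UMIs among the 13. With these 11 left out, the FIBCD1 index among the 253 members rested on few nuclei. THRB was spread more evenly, with 5 or more UMIs in 114 members, 55 in retina 1 and 59 in retina 2, and a largest count of 30. Of those 114, 53 had high doublet scores, and the median depth of the 114 was 8153.5 UMIs. The THRB index was 1.95 with all members and 1.57 without those of high doublet score.

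**Figure D5:**
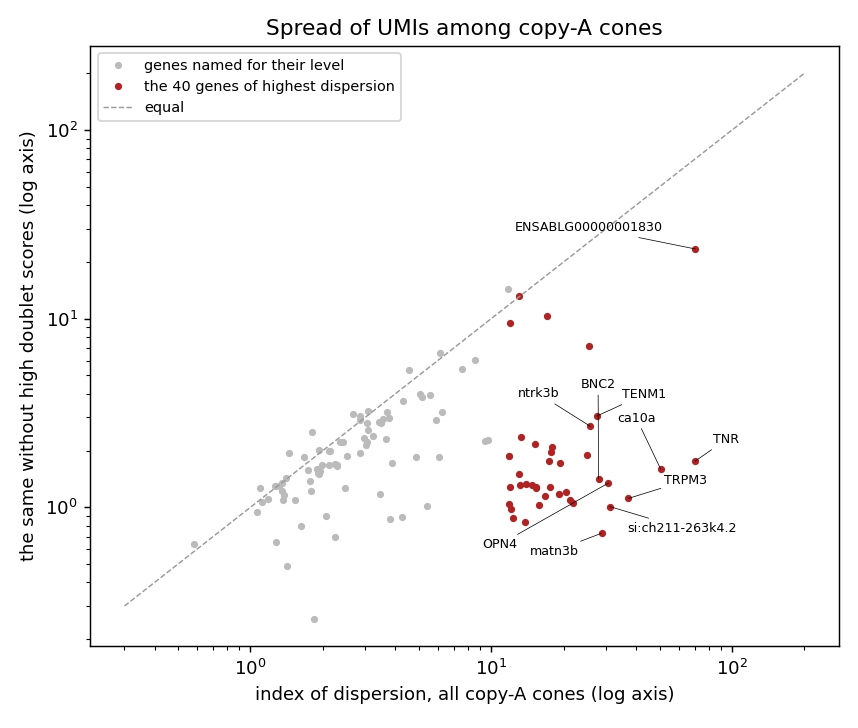
Index of dispersion of each gene among all 377 copy-A cones (horizontal, log axis) and among the 253 without high doublet scores (vertical, log axis), with the 40 genes of highest index in red and the named genes in grey. TNR stands at 70.3 with all members and 1.76 without those, ca10a at 50.5 and 1.60, while FIBCD1 (11.7 and 14.32) and KCNB2 (13.1 and 13.3) stay near the diagonal.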

How the data were processed

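Nuclei of whole adult retinas were fixed, barcoded in combinatorial rounds and sequenced, per the labels. The deposited matrix holds raw UMI counts, not normalized by the authors. The per-barcode totals are also counts, per the file headers, and all 119839 barcode sums of the matrix equalled them. The sources used here do not give the aligner, genome build or annotation. No column of per-sample values was left unmapped (0), but the 2 retina names match no label.

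The members, gene lists and rules were chosen with earlier results of these data known. Counts were summed per class and retina and divided by the class total. Ratios have exact conditional 95% intervals, with counts under 3 set to 3. A gene was called with at least 20 CPM in at least 1 class and a ratio of 2-fold or more in the same direction in each retina. No call was made where both classes held 3 counts or fewer in a retina. With no animals to replicate over, no test was made. The 3 comparisons share the copy-A cones.

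Named genes were the opsin copies and every fate or dorsoventral gene with at least 20 CPM. To these were added the 12 called genes on each side (5 for lws cones) of largest ratio with at least 50 CPM, a symbol and no place on a list of another cell class, and the 10 genes of highest dispersion. Other genes were examples of largest ratio in their lists, and PEAK1, TACR3, ELMO1, GCNT7, KCNB2 and pcdh7b in the orders and spreads were picked after their values were seen, as were the genes shown in the plots. Doublets were scored per sublibrary with scanpy 1.11.5 (scrublet), which marked 40.6% of nuclei (39.5% in s1, 41.6% in s2). They were kept in the main values and left out in an alternative. Other alternatives changed the depth, gate and opsin minimums, the filter, the scaling and the depth by thinning. Equal weighting of nuclei was chosen after seeing the data. The ratio and call steps were tested on simulated data. The simulated sums held counting noise alone, with the same folds in each unit. Spread among nuclei, doublets and differences between retinas were therefore not covered. Python 3.11.15, numpy 2.4.6, pandas 2.3.3, scipy 1.17.1 and matplotlib 3.10.9 were used.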

Additional observations from a re-analysis of the deposited data

How the results depend on the processing

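No paired analysis was possible because the results come from no test, and the calls already compare the classes within each retina. Ratios of single genes were recomputed under every alternative, and of 2656 values 2065 stayed within the counting interval of the reported one, 586 moved beyond it and 5 had the opposite sign with counts under 3 set to 3. For 3 of the 5 the sign comes from that setting alone and shows no direction. These were GFRA1 over lws cones at −0.99 without high doublet scores (5 UMIs in copy-A and 1 in lws cones) and at −0.63 after thinning to 1000 UMIs (6 and 1), and MDGA1 over lws cones at −0.21 after thinning (8 and 0). MDGA1 over lws cones also stood at −0.68 without nuclei with a rod gate UMI (7 and 4 UMIs), and erbb4b over other gated cones at −0.41 without high doublet scores (2 and 19 UMIs). Ratios with 3 counts or fewer in both classes were not computed. The 10 CPM and 50 CPM filters, no filter and the split by sublibrary cannot change a pooled ratio. All 186 values under each of these therefore stayed. All 186 also stayed with at least 1000 UMIs and with at least 5 cone gate UMIs. Without high doublet scores 65 stayed and 111 moved, and without nuclei with a rod gate UMI 67 stayed and 115 moved. After thinning to 1000 UMIs 77 stayed and 103 moved.

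Counts of called genes also depended on the settings, and the cause was not tested unless the setting itself changes how many genes are examined. They are given as higher and then lower in copy-A cones. Over other gated cones the counts were 12 and 103 with a 50 CPM filter and 931 and 391 with none. Over copy-B cones they were 33 and 91 with 50 CPM and 137 and 383 with none, and 275 were lower with 10 CPM. Over lws cones they were 42 and 88 with 50 CPM, and lower genes numbered 300 with 10 CPM and 517 with none. After thinning to 1000 UMIs the counts higher were 89 over other gated, 137 over copy-B and 40 over lws cones, and those lower were 110 over copy-B and 366 over lws cones. Without nuclei with a rod gate UMI 52 genes were higher over other gated and 95 over copy-B cones, and 290 were lower than in lws cones. Without high doublet scores 45 were higher over other gated and 92 over copy-B cones. In that set 163 were lower than in copy-B cones, and 95 were higher and 165 lower over lws cones. Totals near those with all nuclei held partly different genes. Of the 50 higher and 179 lower over copy-B cones with all nuclei, 42 and 67 were called in that set. Over lws cones 32 of 89 and 68 of 186 were, and over other gated cones 17 of 20 and 106 of 188. Without nuclei with a rod gate UMI, 67 of those 179 and 74 of those 186 lower genes were called. With each nucleus weighted equally 35 were higher over other gated cones and 118 lower than in copy-B cones, and 42 were higher over assigned cones alone. Calls in a single retina ranged from 46 to 90 higher and 320 to 549 lower over other gated cones. They ranged from 103 to 137 higher and 321 to 546 lower over copy-B cones, and from 329 to 504 higher and 572 to 666 lower over lws cones. Leaving out retina 1 gave the upper end for genes higher in all 3 comparisons, 90, 137 and 504.

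The share of copy-A cones was 11.6% with at least 3 opsin UMIs and 95% from the copy. The share of members with the VAX mark alone was 43.8% without rod gate UMIs and 42.3% without high doublet scores. Without high doublet scores 4 genes had a dispersion index of 10 or more when the 50 CPM minimum was applied anew. Counts limit the lws comparison, since that class held 122 nuclei.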

Other observations

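Some gated cones held transcripts of both rh2 copies and belong to no class above. At least 2 UMIs of each copy were found in 124 gated cones, whose median depth was 22581.5 UMIs, against 6014 in copy-A cones, and 82.3% of them had high doublet scores. A single opsin UMI, from copy A, was the only one in 61 further gated cones. The unassigned cones together held 1528 UMIs of copy A, at 128 CPM.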
